A study of Mus musculus with 4 samples.

Results

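Kinesins are motor proteins that hydrolyse ATP to walk along microtubules or to shorten them at their ends. Some build and pull on the mitotic spindle and complete cytokinesis, and their messenger RNAs are known to accumulate as cells approach division. Others carry vesicles, mitochondria and ciliary cargo in cells that need not be dividing, usually towards the microtubule plus end and often through light chains or adaptors. In lung epithelium both kinds are at work, the first in cells that proliferate after injury and the second in polarised traffic and in cilia.

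The family was taken by name: every gene of the authors' RPKM table (reads normalised by gene length and sequencing depth) whose symbol is Kif followed by digits and at most one letter from a to c, or Kifc followed by a digit. This gave 34 genes of the 14683 that are named there. By their textbook roles 12 of them are mitotic motors, 13 are transport motors and 9 act at microtubule ends, in cilia or in signalling, here called the other kinesins. Another 7 genes of the count table bear such a name but are outside the RPKM table: Kif2b, Kif12, Kif19a, Kif21a and Kif28 had 0 reads in every library, and Kif1a and Kif17 had at most 3 and 5 reads. Reads of the 34 members were found in all 4 libraries, and 33 reached 1 CPM (counts scaled to the size of the library) in at least 1 library and were tested. Kif6, the remaining member, had 2 to 8 reads, or 0.0738 to 0.270 CPM.

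The RNA came from MLE-12 cells, an immortalised line of mouse alveolar epithelium, labelled either wild type (WT) or Lingo1 knockout (Lingo1 KO, here "KO-labelled"), each unscratched or 24 hours after a scratch wound of the monolayer. Every condition is 1 library, with 26903429 counts in WT unscratched, 27907279 in WT scratched, 29533746 in KO-labelled unscratched and 48333801 in KO-labelled scratched cells, so the last library gives the most precise low counts. The labels do not say whether a genotype is 1 clone or a pool. Lingo1 itself, a membrane protein of Nogo receptor signalling, stood at 46.4 and 42.9 CPM in WT and at 41.2 and 41.4 CPM in KO-labelled cells, unscratched first, so its mRNA was not removed and genotypes are given as labelled.

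Of 11 markers of alveolar type 2 cells 7 reached 1 CPM in at least 1 library, the lowest value of these being 1.17 CPM. Abca3, Lpcat1 and the lung transcription factor Nkx2-1 were above 120 CPM in all 4 libraries. The surfactant protein genes Sftpa1 and Sftpd had 0 reads. A count of 0 allows up to 0.111 CPM in the shallowest library and 0.0626 CPM in the deepest, at 3 counts. The epithelial genes Cdh1 and Krt19 stood at 712 CPM or more and Krt8 at 247 to 331 CPM, but of the 6 epithelial markers Epcam was at 5.28 to 5.47 CPM, Krt18 under 1 CPM and Cldn4 at 0 reads. Among leukocyte markers Ptprc and Adgre1 had 0 reads and the summed level was 1.63 to 2.04 CPM, and of the 5 endothelial markers Cdh5 had 0 reads, though Tek reached 219 CPM. The 8 markers of ciliated cells summed to 5.35 to 6.39 CPM, with Dnah5, Ccdc113 and Hydin at 0. The 7 fibroblast markers summed to 2660 to 2910 CPM, nearly all of it decorin (Dcn), with Tcf21 at 0. The 7 neuronal markers summed to 303 and 331 CPM in WT against 190 and 210 CPM in KO-labelled cells, most of it Map2, with Snap25 and Nefl at 0. Col1a1 was at 21.3 and 16.5 CPM in WT against 197 and 177 CPM in KO-labelled cells, and the surfactant gene Sftpb at 25.4 and 22.9 against 106.6 and 93.5 CPM. By the 2-fold rule given below, 2 of the 7 type 2 markers were higher and 0 lower in KO-labelled cells, unscratched as well as scratched. Of all genes 1.36% and 1.47% were higher by it. Whether other cell types or cell states have a part in the kinesin values was not tested. In such bulk RNA, fewer cells of a type and less RNA per cell cannot be told apart.

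Levels between genes were compared per length, on the RPKM scale. The spindle motor Kif11 was the most abundant member, at 89.1 and 99.6 RPKM in WT and 100.05 and 97.9 RPKM in KO-labelled cells. Kif5b, the widely expressed heavy chain of conventional kinesin, followed at 69.6, 78.8, 70.7 and 70.4 RPKM in the same order. By the mean over the 4 libraries Kif1c, Kif2c and Kif20a completed the 5 highest, with Kif23 close behind at 56.4 against 56.7 RPKM for Kif20a. The order below Kif5b differed between libraries, and in 2 of them (WT unscratched and WT scratched) Kif23 lay above Kif20a. The 12 mitotic genes held 60.1% and 61.3% of the family's RPKM in WT unscratched and scratched cells and 63.4% and 63.0% in the KO-labelled ones. The transport motors held 33.7% to 36.6%, and the other kinesins 2.92% to 3.26%. Every mitotic member was above 4 RPKM in every library, whereas the transport motors Kif5a, Kifc2 and Kif3c and most of the other kinesins stayed under 3.

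**Figure D1:**
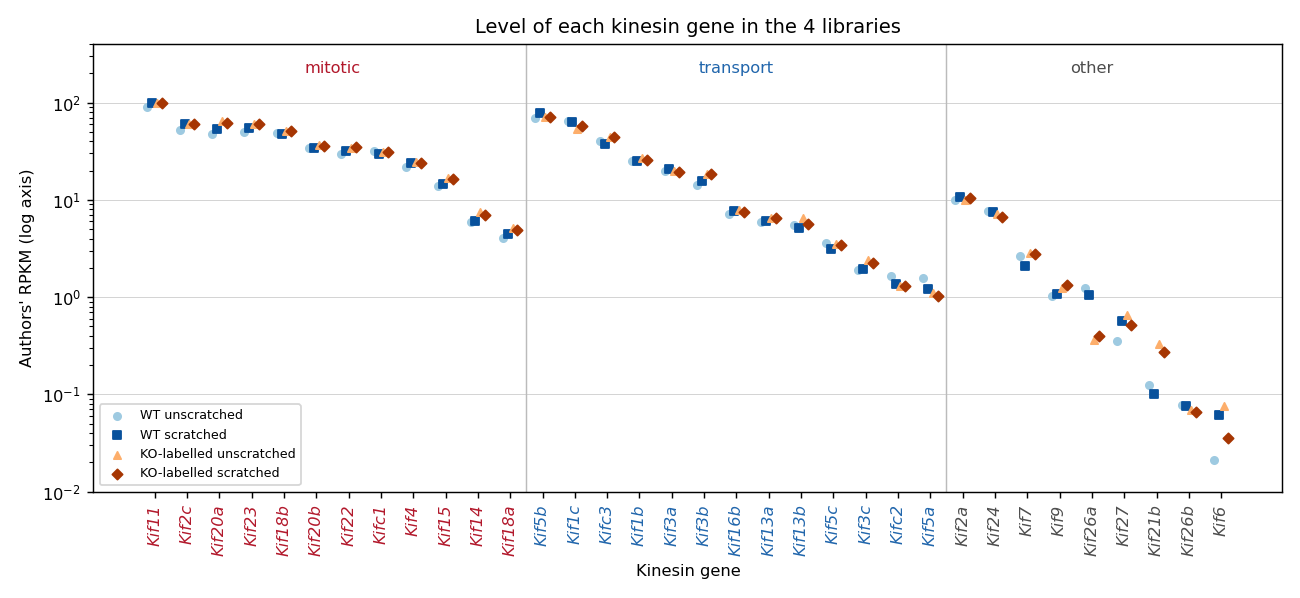
Authors' RPKM of the 34 kinesin genes (log axis) in each of the 4 libraries, ordered by class and mean level; each point is 1 library. For most genes the 4 points lie together, and the wide gaps are among the rare genes Kif26a, Kif27, Kif21b and Kif6.

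To show what lies before the start sites, 3 mitotic members with the letters TTTGAA close to the start are printed with Kif26a, the member with the largest fall in the KO-labelled libraries. Cell cycle genes that peak late are known to carry such a run, the cell cycle genes homology region, and CCAAT is the letter run bound by NF-Y. The 110 bases before the RefSeq start site (GRCm38.p6, the build also called mm10) are printed 5′ to 3′ on the gene's own strand, and capitals mark TTTGAA, its variant TTTAAA and the NF-Y letters CCAAT on either strand, a run on the other strand appearing as its reverse complement.
Kif11 (chr19:37376272-37376381, plus strand): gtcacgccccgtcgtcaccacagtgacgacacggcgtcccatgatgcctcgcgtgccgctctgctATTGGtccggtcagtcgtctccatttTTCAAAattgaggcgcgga
Kif15 (chr9:122950971-122951080, plus strand): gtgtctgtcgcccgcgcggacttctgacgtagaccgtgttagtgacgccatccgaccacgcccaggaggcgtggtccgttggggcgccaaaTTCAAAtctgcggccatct
Kif22 (chr7:127042421-127042530, minus strand): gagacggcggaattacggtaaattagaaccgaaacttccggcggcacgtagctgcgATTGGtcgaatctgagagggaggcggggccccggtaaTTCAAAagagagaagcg
Kif26a (chr12:112146098-112146207, plus strand): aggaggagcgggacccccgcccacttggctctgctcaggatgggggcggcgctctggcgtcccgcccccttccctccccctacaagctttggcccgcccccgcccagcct

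In Kif11, Kif15 and Kif22 the TTTGAA run lay on the other strand, 13, 13 and 11 bases before the start. Kif11 and Kif22 also held CCAAT, 40 and 49 bases before it, while none of the 3 runs was in the Kif26a stretch. A promoter sequence was at hand for 27 members, of which 11 are mitotic, 8 transport and 8 other kinesins. Within 110 bases, TTTGAA was held by 4 of the 11 mitotic members, 0 of the 8 transport motors and 2 of the other 8, against 7.44% of 27025 genes. The variant TTTAAA was held by 1, 0 and 0 of them, against 5.56%, and CCAAT by 7, 3 and 3, against 23.0%. The RefSeq start lies 1505, 3867 and 4175 bases inside the GENCODE gene for Kif14, Kif2c and Kif27, so their windows may not be the main promoter. Over the 8 mitotic members whose starts match within 100 bases, 3 held TTTGAA and 5 held CCAAT. These are matches of letters, with no binding measured, and they were described after the values of the members were known.

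Each library was compared with another by the ratio of CPM and a 95% interval that covers counting error only. A gene counts as past 2-fold at a log2 difference of at least 1 in size, and by the 25% rule at a ratio of 25% above 1 or more, or of 0.8 or less, in both cases with an interval that excludes 1. An additive fit of genotype and scratch to the 4 libraries (quasi-likelihood F-test of edgeR, p-values adjusted over all 12348 tested genes by Benjamini-Hochberg) gave log2 changes with their standard errors (SE), and "rose" and "fell" are used for genes that passed it at 0.05. With no replicate cultures its p-values compare 4 libraries, and its only source of spread is how far the scratch response differs between genotypes. That spread is mostly pooled over genes (25.4 prior against 1 residual degree of freedom), so an SE hardly reflects a gene's own difference.

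Kinesins differed between the genotypes mostly by small amounts. Members whose 2 genotypes did not overlap are described below, but the share of all genes without overlap was not counted. Lack of overlap was not particular to members that passed the additive fit. Kif18b, Kif20b, Kif1b, Kif13a, Kif24, Kif9, Kifc2 and Kif26b did not pass and also had no overlap. In the additive fit 15 of 33 passed, 12 of which rose with the KO label and 3 fell, where 26.0% of all tested genes passed. With DESeq2 5 members passed, where 7.84% of all genes did. The 2-fold rule called 2 members in unscratched cells and the same 2, Kif21b and Kif26a, in scratched cells, where it called 2.24% and 1.90% of all genes. The 25% rule called 9 members in unscratched cells and 3 in scratched cells, where it called 16.5% and 12.8% of all genes.

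Mitotic kinesins were higher in the KO-labelled libraries by small ratios. In the additive fit 6 of the 12 rose with the KO label and 0 fell, where 13.8% of all genes rose and 12.2% fell. The median of the 12 was 0.16 on the log2 scale, against 0.00 over all tested genes. DESeq2 called only Kif20a of the 12.

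Kif20a, a motor that carries the chromosomal passenger complex to the central spindle, rose most among them. It stood at 173.6 CPM in WT unscratched, 195.1 in WT scratched, 237.4 in KO-labelled unscratched and 227.7 in KO-labelled scratched cells. Both KO-labelled libraries were above both WT libraries. The ratio to WT was 1.37 (1.32 to 1.42) in unscratched cells and 1.17 (1.13 to 1.21) in scratched cells, and the log2 change was 0.34 ± 0.06 SE (adjusted p = 0.000175 in the edgeR fit). On the other strand 29.3% of its exonic bases overlap Cdc23, an anaphase-promoting complex gene whose own ratios were 1.12 (1.05 to 1.18) and 1.01 (0.962 to 1.06), and the strand setting of the counting is not given in the sources used here. Exons of 13 members, Kifc3 among them, overlap a gene on the other strand, and their counts are uncertain to that extent.

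Kif23, the motor of centralspindlin in cytokinesis, stood at 170.3 and 184.8 CPM in WT and at 204.8 and 206.8 CPM in KO-labelled cells, unscratched first. Its ratios were 1.20 and 1.12, both with intervals above 1, and its log2 change was 0.21 ± 0.06 SE. Kif14, which acts with citron kinase at the midbody, stood at 53.0 and 54.3 CPM in WT against 66.8 and 62.7 CPM. For both genes the 2 genotypes did not overlap. Kif14 had ratios of 1.26 (1.18 to 1.35) and 1.15 (1.08 to 1.23), and its log2 change was 0.27 ± 0.05 SE.

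Kif15, which helps to hold the spindle poles apart, stood at 66.9 and 70.9 CPM in WT and 81.1 and 80.6 CPM in KO-labelled cells (log2 change 0.23 ± 0.05 SE). Kif18a, a motor that limits the swing of chromosomes at metaphase, was at 26.4 and 29.0 against 33.7 and 32.1 CPM (0.25 ± 0.08 SE). Kif22, a motor that binds chromosome arms, was at 104.5 and 113.0 against 123.1 and 126.4 CPM (0.20 ± 0.06 SE). In each of the 3 the WT unscratched library was the lowest and both KO-labelled libraries were above both WT ones.

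The other 6 mitotic members did not pass. Kif11, which slides antiparallel spindle microtubules apart, was at 427.3 CPM in WT unscratched cells and at 480.3, 481.5 and 473.6 CPM in WT scratched, KO-labelled unscratched and KO-labelled scratched cells. Only the WT unscratched library stood apart, so that the ratio to WT was 1.13 (1.10 to 1.16) in unscratched cells and 0.986 (0.965 to 1.01) in scratched cells. Kif2c, a depolymerase that corrects faulty kinetochore attachments, had the same shape, at 148.3 CPM against 170.1, 172.5 and 172.0 CPM, and so did the chromosome motor Kif4, at 108.8 CPM against 120.4, 122.2 and 120.6 CPM. Kif18b, a motor of astral microtubule ends, was at 160.9 and 158.5 CPM in WT and at 170.0 and 171.1 CPM in KO-labelled cells. Kif20b, a motor of late cytokinesis, was at 187.0 and 190.8 against 203.5 and 199.6 CPM.

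Kifc1, a minus-end motor that gathers spindle poles, was at 73.9, 70.5, 72.3 and 73.2 CPM in WT unscratched, WT scratched, KO-labelled unscratched and KO-labelled scratched cells, with ratios of 0.979 (0.920 to 1.04) and 1.04 (0.982 to 1.10) to WT. Of its transcript's 50-base windows 47.6% also occur in other genes, mostly in its copy Kifc5b, so its count is uncertain. With the reads of both genes summed the ratios were 0.981 (0.932 to 1.03) and 1.00 (0.958 to 1.05). No other member shared over 3% of its windows.

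**Figure D2:**
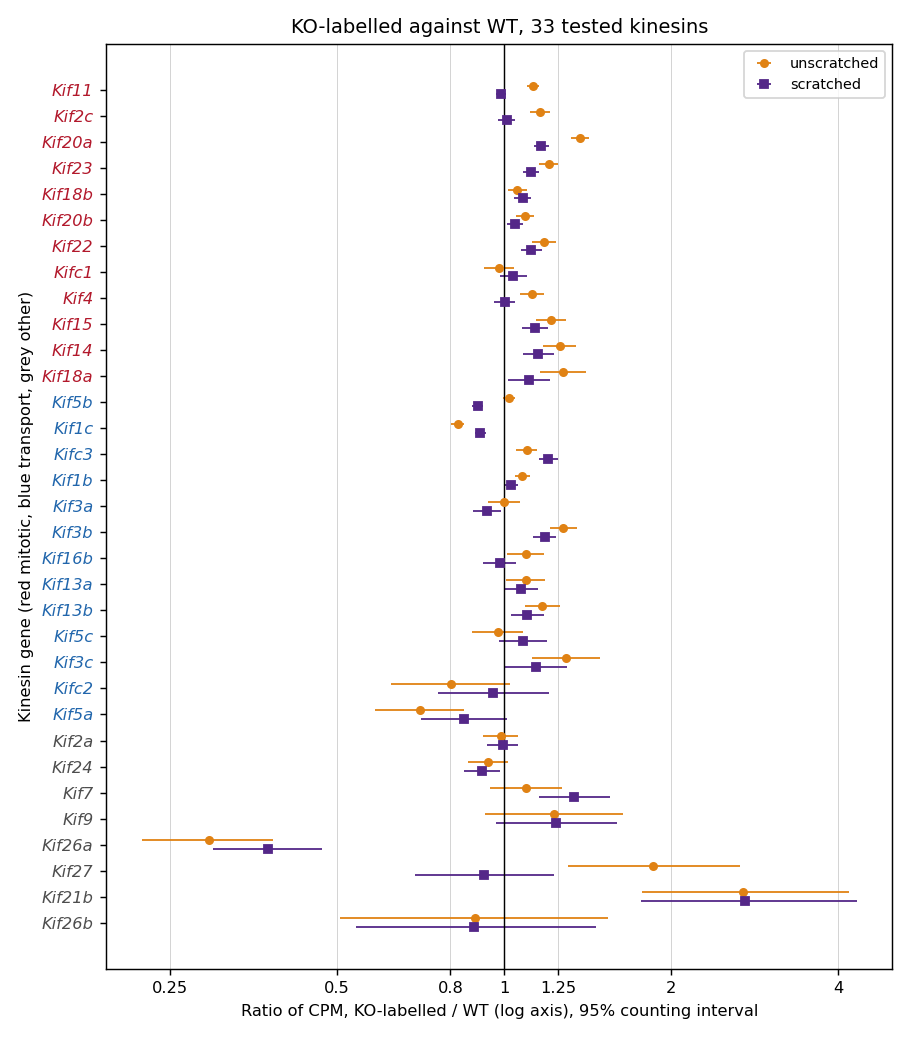
Ratio of CPM in KO-labelled over WT cells (log axis) for the 33 tested kinesins, unscratched (circles) and scratched (squares), with 95% counting intervals; names are coloured by class. Most mitotic members lie to the right of 1, transport motors lie on both sides, and Kif26a (0.293 and 0.375) and Kif21b (2.69 and 2.71) lie farthest out.

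Summed over the class, mitotic kinesins were at 1701 CPM in WT unscratched, 1838 in WT scratched, 1969 in KO-labelled unscratched and 1946 in KO-labelled scratched cells. The WT unscratched library was the lowest, and both KO-labelled libraries exceeded both WT libraries. The summed ratio to WT was 1.16 (1.14 to 1.17) in unscratched cells and 1.06 (1.05 to 1.07) in scratched cells. Counting intervals of 11 members lay above 1 in unscratched cells and of 8 in scratched cells, against 26.8% and 24.0% of all genes, and no member lay below 1 in either. The median log2 difference was 0.23 and 0.13, against 0.01 and 0.00 over all tested genes. Higher by the 25% rule were Kif20a, Kif14 and Kif18a in unscratched cells, where 8.93% of all genes were, and no mitotic member in scratched cells (7.28%).

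After the scratch the summed CPM of the mitotic class was slightly higher in WT and nearly the same in KO-labelled cells. In WT the summed ratio of scratched to unscratched cells was 1.08 (1.07 to 1.09), and the intervals of 6 members (Kif2c, Kif11, Kif20a, Kif4, Kif23 and Kif22, at 1.15 to 1.08) lay above 1, against 22.3% of all genes. In KO-labelled cells the summed ratio was 0.989 (0.978 to 0.999), with 0 members above 1 (18.2% of all genes) and Kif20a (0.959) and Kif14 (0.938) below it (13.9%). Without Kif20a that sum was 0.993 (0.982 to 1.004), an interval that includes 1. The difference of the summed responses, KO-labelled minus WT, was -0.13 on the log2 scale (-0.15 to -0.10, counting error only). It was below 0 beyond counting error for Kif11, Kif2c, Kif20a, Kif4, Kif23 and Kif18a, where 14.9% of all genes were. The WT unscratched library enters both the larger genotype ratio and the WT scratch ratio, so these values are not independent of each other.

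Genes that work with the mitotic motors were counted beside them. Of 24 partners, 8 rose with the KO label and 0 fell in the additive edgeR fit, against 13.8% and 12.2% of all genes. Tpx2, a spindle assembly factor that recruits Kif15 and binds Kif11, rose most (log2 0.44 ± 0.06 SE, 222.1 and 242.3 CPM in WT against 315.4 and 316.1 CPM). It was followed by its kinase Aurka (0.43 ± 0.06), cyclin B1 (Ccnb1, 0.39 ± 0.06) and the checkpoint kinase Bub1b (0.38 ± 0.06). Summed, the partners were at 4423, 4754, 5040 and 5017 CPM in WT unscratched, WT scratched, KO-labelled unscratched and KO-labelled scratched cells, the same order as the mitotic kinesins. In unscratched cells 24 of the 24 ratios to WT were above 1, as were 6358 of all 12348 tested genes. In scratched cells 19 were, against 6233 of all tested genes. There 11 intervals lay above 1 (24.0% of all genes) and 3 below 1 (23.6% of all genes), with a lowest ratio of 0.924 and a median log2 difference of 0.04.

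Cenpe, the kinetochore kinesin that moves chromosomes to the spindle equator, has no Kif name and lies outside the rule. It rose by 0.40 ± 0.07 SE (log2), from 139.8 and 156.5 CPM in WT to 207.4 and 184.6 CPM in KO-labelled cells, a larger change than that of any mitotic member. The other 2 kinesins without a name of the pattern did not pass: Stard9, a motor of the centrosome, was at 26.6, 22.3, 27.4 and 19.3 CPM in WT unscratched, WT scratched, KO-labelled unscratched and KO-labelled scratched cells, and Kifc5b at 31.8, 32.8, 31.3 and 30.4 CPM. Their log2 changes with the KO label were -0.08 ± 0.09 and -0.07 ± 0.07. Of 25 S phase genes, by contrast, 2 rose and 12 fell, beside the same 13.8% and 12.2% of all genes, and their sum was 6735 and 6986 CPM in WT against 6146 and 6285 CPM. Cyclin E1 (Ccne1, 0.44 ± 0.11) rose and the chromatin assembly factor Chaf1b (-0.33 ± 0.06) fell. The part of cell cycle distribution in the kinesin values was not tested.

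**Figure D3:**
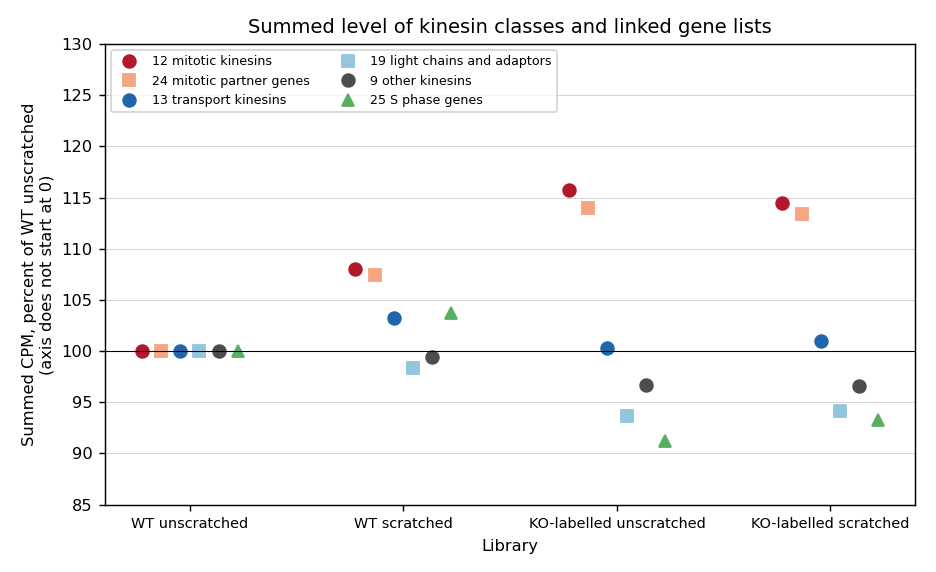
Summed CPM of the 3 kinesin classes and of 3 linked gene lists in each library, as percent of the WT unscratched library (the axis does not start at 0). Mitotic kinesins and their partners lie highest in the KO-labelled libraries, S phase genes and the light chains and adaptors lie lowest there, and transport kinesins stay near 100.

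Transport kinesins changed in both directions, and their sum hardly differed. Of the 13, 4 rose and 2 fell with the KO label in the additive edgeR fit (13.8% and 12.2% of all genes did), and their median was 0.05 on the log2 scale. DESeq2 called Kif3b and Kif1c of the 13. The summed level was 1573 and 1624 CPM in WT and 1579 and 1589 CPM in KO-labelled cells, unscratched first. The ratio to WT was 1.00 (0.990 to 1.02) in unscratched cells and 0.978 (0.967 to 0.990) in scratched cells.

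Kif1c, a fast motor of vesicles and of the Golgi, fell by 0.21 ± 0.06 SE (log2, adjusted p = 0.00756 in the edgeR fit). It stood at 428.2 and 422.6 CPM in WT and at 353.3 and 383.0 CPM in KO-labelled cells, without overlap, with ratios of 0.825 (0.803 to 0.847) and 0.906 (0.886 to 0.928). Kif5a, the heavy chain of conventional kinesin known from neurons, fell by 0.37 ± 0.11 SE. It was at 9.89 CPM in WT unscratched cells and at 7.71, 6.96 and 6.51 CPM in the others, and its ratio was 0.704 (0.584 to 0.847) in unscratched cells but 0.845 (0.708 to 1.01) in scratched cells. It was the 1 transport motor lower by the 25% rule in unscratched cells, where 7.56% of all genes were.

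Its relatives did not pass: Kif5b stood at 417.6, 476.0, 426.2 and 426.3 CPM in WT unscratched, WT scratched, KO-labelled unscratched and KO-labelled scratched cells, high in WT scratched cells alone. Its ratio to WT was 1.02 (0.995 to 1.05) in unscratched cells and 0.896 (0.876 to 0.916) in scratched cells. Kif5c was at 24.7, 21.7, 24.1 and 23.4 CPM. Among the light chains and cargo adaptors of these motors 16 of 19 genes were tested, of which 2 rose and 4 fell, against 13.8% and 12.2% of all genes. The kinesin light chain Klc3 (-0.37 ± 0.13) and the small GTPases Arl8a (-0.30 ± 0.06) and Arl8b (-0.21 ± 0.06), which couple lysosomes to kinesin, fell, and the scaffold Mapk8ip3 (0.20 ± 0.05) rose.

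Kif3b, a motor subunit of heterotrimeric kinesin known from intraflagellar transport, and Kif3c rose, while their partner Kif3a did not pass. Kif3b was at 80.5 and 89.0 CPM in WT and at 102.9 and 105.3 CPM in KO-labelled cells (log2 0.30 ± 0.06 SE, adjusted p = 0.000220 in the edgeR fit), and Kif3c at 12.7 and 13.3 against 16.4 and 15.1 CPM (0.28 ± 0.09). Both genes had no overlap between genotypes. Both were higher by the 25% rule in unscratched cells, at 1.28 (1.21 to 1.35) and 1.29 (1.12 to 1.49), where 8.93% of all genes were. Kif3a was at 62.6, 65.7, 62.7 and 61.3 CPM, and Kifap3, the accessory subunit of the complex, at 72.0, 76.8, 75.1 and 72.9 CPM, with log2 changes of -0.05 ± 0.05 and -0.01 ± 0.05. Per length, Kif3a was at 19.9 and Kif3b at 14.4 RPKM in WT unscratched cells, and they were at 19.9 and 18.3 RPKM in KO-labelled unscratched cells. On the other strand 40.7% of the exonic bases of Kif3c overlap 1110002L01Rik or Gm48512, and 1110002L01Rik had 31 to 76 reads in a library. Of 22 intraflagellar transport genes, 2 rose (Wdr19 0.25 ± 0.07 and Ttc21b 0.19 ± 0.07) and 2 fell (Ift122 -0.24 ± 0.06 and Ift74 -0.17 ± 0.06), no larger a share than the 13.8% and 12.2% of all genes.

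Kifc3, a minus-end motor known from apical traffic and adherens junctions, rose by 0.20 ± 0.06 SE, from 136.3 and 126.5 CPM in WT to 149.7 and 152.0 CPM in KO-labelled cells. Kif13b, a motor of membrane proteins, rose by 0.18 ± 0.06 SE, at 49.1 and 46.1 against 57.5 and 50.6 CPM. The genotypes did not overlap in either gene. The vesicle motors Kif1b, Kif13a and Kif16b and the minus-end motor Kifc2 did not pass. Their log2 changes were 0.07 ± 0.06, 0.11 ± 0.06, 0.05 ± 0.06 and -0.19 ± 0.14.

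The motors that walk the other way on the same tracks were looked at beside these. Of 27 tested genes of 28 for cytoplasmic dynein and dynactin, 1 rose and 4 fell with the KO label, the dynein heavy chain Dync1h1 (0.26 ± 0.06) rising and the adaptor Hook1 (-0.50 ± 0.06), Dctn3 (-0.32 ± 0.05) and Dync1i1 (-0.25 ± 0.08) falling. Of all genes 13.8% rose and 12.2% fell.

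Of the 8 tested other kinesins, 2 rose and 1 fell, against 13.8% and 12.2% of all genes, and this group held the largest ratios of the family. Kif26a (ENSMUSG00000021294, chromosome 12, 112146208 to 112181747, plus strand) encodes an atypical kinesin known to lack ATPase activity and to restrain growth factor signalling in enteric neurons. It had 231 reads in WT unscratched, 205 in WT scratched, 74 in KO-labelled unscratched and 132 in KO-labelled scratched cells, or 8.52, 7.35, 2.501 and 2.76 CPM. Both KO-labelled libraries lay far below both WT libraries. It was the only member past a 2-fold fall, in both comparisons, where 0.883% of all genes were that much lower in unscratched cells and 0.429% in scratched cells. Its log2 change was -1.57 ± 0.14 SE (adjusted p = 3.59e-09 in the edgeR fit).

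Kif26b, its closest relative, stayed at 1.07, 1.04, 0.946 and 0.919 CPM from 28 to 44 reads. The ratios were 0.884 (0.507 to 1.54) and 0.884 (0.541 to 1.46), so a difference within these bounds was not detectable at this depth.

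Kif21b (ENSMUSG00000041642, chromosome 1, 136131389 to 136177998, plus strand), a motor that regulates microtubule growth in neurons and immune cells, went the other way. It had 31 and 26 reads in WT and 91 and 121 reads in KO-labelled cells, or 1.14 and 0.932 against 3.08 and 2.53 CPM. The ratios were 2.69 (1.77 to 4.18) in unscratched cells and 2.71 (1.76 to 4.32) in scratched cells, with no overlap of the genotypes. No other member passed the 2-fold rule in the higher direction, by which 1.36% and 1.47% of all genes were called. The log2 change was 1.43 ± 0.24 SE (adjusted p = 5.46e-05 in the edgeR fit), from a gene that stayed under 4 CPM. It was left out with a minimum of 5 CPM, and on the RPKM scale with a pseudocount of 0.1 it no longer passed 2-fold.

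Kif27 (chromosome 13, 58287502 to 58359122, minus strand), a relative of the Hedgehog kinesin Kif7 that is known from motile cilia, was low in WT unscratched cells only. It was at 1.81 CPM there and at 2.90, 3.35 and 2.67 CPM in WT scratched, KO-labelled unscratched and KO-labelled scratched cells, from 49 to 128 reads. The ratio to WT was 1.85 (1.30 to 2.66) in unscratched cells and 0.920 (0.691 to 1.23) in scratched cells, and it did not pass the additive fit (0.33 ± 0.21). Kif7, which sits at the tip of the primary cilium and regulates Gli factors, was at 11.99 and 9.46 CPM in WT and at 13.1 and 12.7 CPM in KO-labelled cells.

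Kif7 rose by 0.28 ± 0.10 SE (adjusted p = 0.0465 in the edgeR fit). That call was lost with total counts (adjusted p = 0.0596), with DESeq2 size factors (0.0520) and with a minimum of 5 CPM (0.0507), and 20.3% of its exonic bases overlap opposite-strand genes. In scratched cells Kif7, at a ratio of 1.34 (1.16 to 1.55), and Kif21b were the 2 members higher by the 25% rule. Of all genes 7.28% were higher by it. Kif26a was the 1 member lower by it, where 5.47% of all genes were. Of 16 Hedgehog pathway genes 9 were tested, of which the receptor Ptch1 (0.23 ± 0.07) and the co-receptor Cdon (0.21 ± 0.06) rose and the ciliary receptor Gpr161 (-0.21 ± 0.06) fell, beside 13.8% and 12.2% of all genes. Gli1 stayed under 1 CPM.

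**Figure D4:**
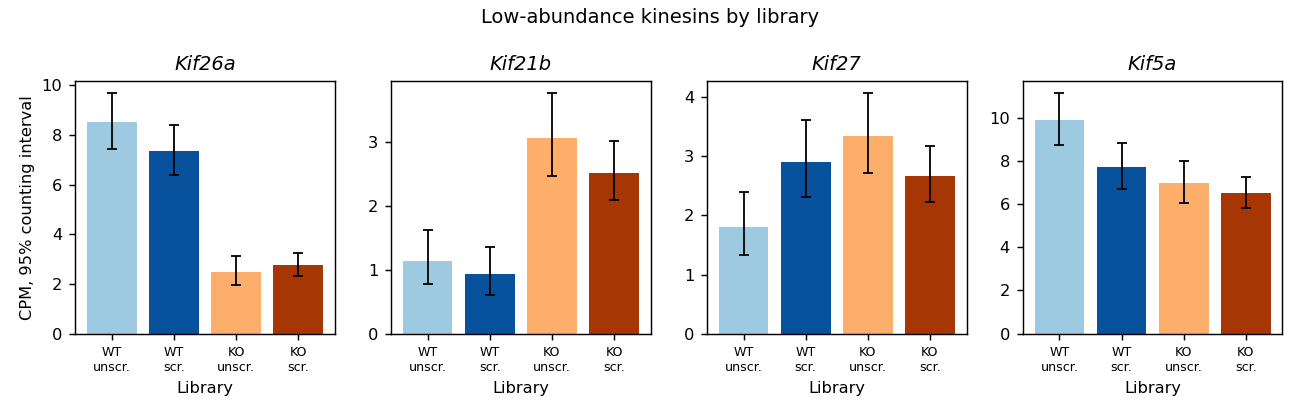
CPM of Kif26a, Kif21b, Kif27 and Kif5a in each library (bars, from 0) with exact 95% Poisson intervals of the counts (error bars, counting error only); the scales differ between panels. Kif26a falls from 8.52 and 7.35 CPM in WT to 2.501 and 2.76, Kif21b is higher in both KO-labelled libraries, and Kif27 is low in WT unscratched cells alone.

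The remaining other kinesins differed little. Kif2a, a microtubule depolymerase of spindle poles and neurons, was at 53.1, 56.5, 52.4 and 56.1 CPM in WT unscratched, WT scratched, KO-labelled unscratched and KO-labelled scratched cells, its counterpart Kif24 of the mother centriole at 43.1, 41.5, 40.3 and 37.9 CPM, and the ciliary gene Kif9 at 3.25, 3.44, 3.99 and 4.26 CPM. None of the 3 passed the additive fit, with log2 changes of -0.01 ± 0.05, -0.12 ± 0.06 and 0.30 ± 0.16.

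None of the 33 tested members changed with the scratch in the additive fit, while Stard9, outside the name rule, fell by 0.38 ± 0.09 SE (log2). Of the 33 members 0 passed edgeR's test after Benjamini-Hochberg adjustment, where 2.91% of all genes did (1.47% higher and 1.44% lower). Of the 33 members 1, Kif13b, had an unadjusted p below 0.05 in edgeR's test, and the share of all genes at that cut was not counted. Its log2 change was -0.14 ± 0.06 SE, with ratios of 0.939 in WT and 0.881 in KO-labelled cells. DESeq2 called 0 of 33 with or without adjustment. No kinesin was 2-fold different after the scratch in either genotype, against 0.858% of all genes in WT (0.121% higher, 0.737% lower) and 0.267% in KO-labelled cells (0.170% and 0.0972%). In WT, Kif27 was higher at 1.61 (1.11 to 2.34), by the 25% rule that 2.31% of all genes met, and Kif5a at 0.779 (0.648 to 0.936) and Kif7 at 0.789 (0.668 to 0.931) were lower, where 4.15% of all genes were; the 3 members compare with 6.46% of all genes. In KO-labelled cells no member met that rule in either direction, against 3.64% of all genes (1.47% higher and 2.16% lower).

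With a prior count of 2, no kinesin passed the 2-fold rule for a difference of scratch responses between the genotypes, where 0.826% of all genes did. The nearest was Kif27, at -0.98 on the log2 scale (-1.62 to -0.35), which passed with a prior count of 0.5. Among transport motors the response was below 0 beyond counting error for Kif5b (-0.19, -0.24 to -0.14), Kif1b, Kif3b and Kif16b, where 14.9% of all genes were. These were relatively lower in KO-labelled cells. It was above 0 for Kif1c (0.14, 0.08 to 0.19) and Kifc3 (0.13, 0.04 to 0.22), which were relatively higher, where 11.6% of all genes were.

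**Figure D5:**
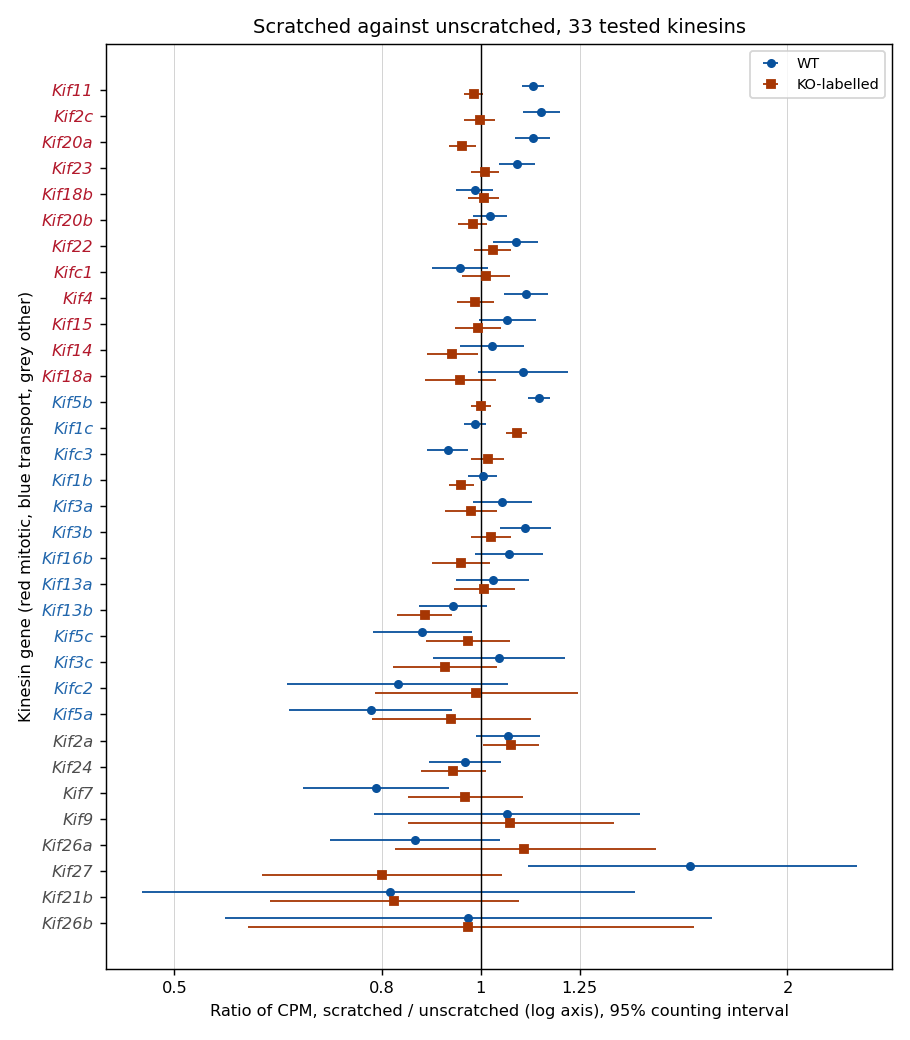
Ratio of CPM in scratched over unscratched cells (log axis) for the 33 tested kinesins in WT (circles) and KO-labelled cells (squares), with 95% counting intervals. In WT 6 mitotic members lie above 1 with their whole interval; in KO-labelled cells the mitotic members lie close to 1.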

How the data were processed

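Messenger RNA of MLE-12 cells was sequenced in 4 libraries, 1 per condition, from a stranded kit per the labels' protocols. The authors deposited raw read counts for 46078 Ensembl genes and RPKM values for 14844, of which 161 rows are empty. Per the submitters' processing notes the tools include HTSeq 0.11.3, STAR 2.7.9a, edgeR 3.32.1 and Trimmomatic 0.39 and the build is mm10, with no roles stated; the strand setting of the counting is not given in the sources used here. Column letters were read as WT or L1 for genotype and S or N for scratched or unscratched. Names came from the RPKM table or, otherwise, a reference list (45143 identifiers matched), and positions from GENCODE M21 annotation of mm10.

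Counts were scaled with TMM factors (0.991 to 1.01). Genes with 1 CPM in at least 1 library were tested. Ratios of CPM carry exact 95% Clopper-Pearson intervals, which cover counting error only. A gene was called at a log2 difference of 1 (prior count 2), or at a ratio 25% above 1 (0.8 or less below it), where the interval excluded 1. The additive fit (genotype plus scratch, 1 residual degree of freedom, false discovery rate 0.05) used edgeR 4.0.16 in R 4.3.3; alternatives used DESeq2 1.42.0. Python 3.11.15, scipy 1.17.1 and matplotlib 3.10.9 served for the rest, and scripts were tested on simulated data. All 34 members are named, whether or not they passed a rule. Of each linked list at most 4 genes with the largest change are named, beside Kifap3, Gli1 and the marker genes. The members, lists and rules were chosen with earlier results of these data known. Promoter sequences are RefSeq's.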

Additional observations from a re-analysis of the deposited data

Results flagged for a closer look

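Kif20a had scratch responses of opposite direction in the genotypes, each beyond counting error. It was at 1.12 times its unscratched level (95% interval 1.08 to 1.17) in WT and at 0.959 times (0.931 to 0.989) in KO-labelled cells after the scratch. The difference of the responses was -0.23 on the log2 scale (-0.30 to -0.16), an interval of counting error with 1 library per condition, so the difference was not tested over replicates. Intervals lay above 1 in WT for 22.3% of all genes and below 1 in KO-labelled cells for 13.9%, and the share with both was not counted. Cdc23, which overlaps Kif20a on the other strand, had scratch ratios of 1.10 (1.04 to 1.17) and 0.998 (0.951 to 1.05).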

How the results depend on the processing

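No paired analysis was possible because each condition is 1 library with no replicate number. With 1 library per condition no replicate could be left out either. Of the 12 higher and 3 lower kinesins of the additive edgeR fit on genotype, DESeq2's Wald test called 5 (Kif20a, Kif3b and Kif21b higher, Kif26a and Kif1c lower). It called 968 of all genes against 3205. The 2 kinesins past 2-fold in each genotype comparison became 1 (Kif26a) with a 5 CPM minimum and with the authors' RPKM. With a prior count of 0.5 the difference of scratch responses called 1 kinesin (Kif27) in place of 0. With total counts the mitotic sum after the scratch in KO-labelled cells was 0.978 times the unscratched one, in place of 0.989. Without Kif20a, an alternative chosen after seeing the data, the mitotic ratio to WT was 1.13 unscratched and 1.05 scratched, and the scratch ratio in KO-labelled cells 0.993 with an interval that includes 1. The cause of these shifts was not tested. Under total counts, DESeq2 size factors and the authors' RPKM all 132 single ratios of the 33 tested members stayed within their counting intervals, and no called one changed direction. With TMM factors of 0.991 to 1.01 the scaling could shift a ratio only a little, so this is a weak check. Counting limits the rare genes: Kif6, Kif26b, Kif21b and Kif27 rest on at most 128 reads in any library.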
